A study of Glycine max with 20 samples.

Results

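The difference between cgy-2-NIL and DN47 seeds at 18 days after flowering (DAF) was measured by RNA-seq in 4 libraries of a 20-library series, 2 of each line, and covered every gene in the count table. Of 57274 genes listed, 38135 had enough counts at 18 DAF to be tested. The cgy-2-NIL libraries came from a near-isogenic line that carries the cgy-2 allele on a donor segment of chromosome 20 and lacks the α-subunit of β-conglycinin. The DN47 libraries came from the cultivar Dongnong47, the recurrent parent to which that line was repeatedly backcrossed under marker selection. Both groups were field-grown, untreated, and sampled at the same age as whole seeds with cotyledon and seed coat combined, and the seeds of an age were pooled before RNA was extracted. The line is a product of a single breeding scheme, so any other donor DNA it holds would be measured together with the cgy-2 segment. The later stages of the series, at 25, 35, 50 and 55 DAF, are used below as comparison.

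Soybean seeds fill with 2 classes of storage globulin, the 7S β-conglycinins and the 11S glycinins, whose transcripts rise steeply as the embryo passes from cell division and patterning to reserve deposition. In whole seeds, fewer cells of a type and less RNA per cell cannot be told apart.

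Storage globulin transcripts were scarce in these libraries. The study annotated 18 cupin genes, most of them 7S or 11S storage globulins, with no class given for GLYMA16G00980 and GLYMA10G39161. Together they took 0.0176% and 0.0184% of the counts in cgy-2-NIL, against 0.0158% and 0.0155% in DN47. At 35 DAF the same genes took 14.9% and 21.5% in cgy-2-NIL, against 22.9% and 20.4% in DN47. The 2 genes for the α-subunit itself could not check the line labels at 18 DAF. GLYMA20G28660 had 0 counts in all 4 libraries, and GLYMA20G28650 had 0 and 0 counts in cgy-2-NIL, against 1 and 0 in DN47. In the libraries of 25 DAF and later, GLYMA20G28660 had between 0 and 8 counts in the 8 cgy-2-NIL libraries, against 39 to 3825 in the 8 DN47 libraries.

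Depth at 18 DAF was 30555808 and 30449100 counts in cgy-2-NIL, against 24916180 and 24889904 in DN47. Replicates of a line lay close together, with a squared correlation of log2(RPKM + 1) of 0.992 in both lines, and the common dispersion fitted to these 4 libraries was 0.00383, against 0.0162 for all 20 libraries. By the study's methods the replicates were separate biological samples, though the sources do not say that they came from separate plants, so the p-values measure the spread between these pooled seed samples, which may be partly technical. With that small spread, small differences pass the test, and a fit of all 20 libraries with 1 shared spread is given beside the main counts.

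A set of genes stood apart before any line comparison. Replicate libraries of DN47 at 50 DAF and of cgy-2-NIL at 55 DAF split on the same 42 genes, which were more than 4 times as abundant in replicate 2 as in replicate 1 in both pairs. The set was defined after the data were seen, without use of the 18 DAF values. The 42 genes together took 0.0816% to 0.119% of the counts in 6 libraries and 0.00312% to 0.00467% in the other 14. The 6 high libraries were both DN47 libraries of 18 DAF and of 55 DAF, DN47 replicate 2 of 50 DAF and cgy-2-NIL replicate 2 of 55 DAF. The last 2 were high by the rule that defined the set. At 18 DAF the shares were 0.00425% and 0.00429% in cgy-2-NIL, against 0.0962% and 0.109% in DN47. At 18 DAF the state of this set and the line therefore cannot be told apart, since the set also changed between replicates of 1 line at later stages.

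**Figure D1:**
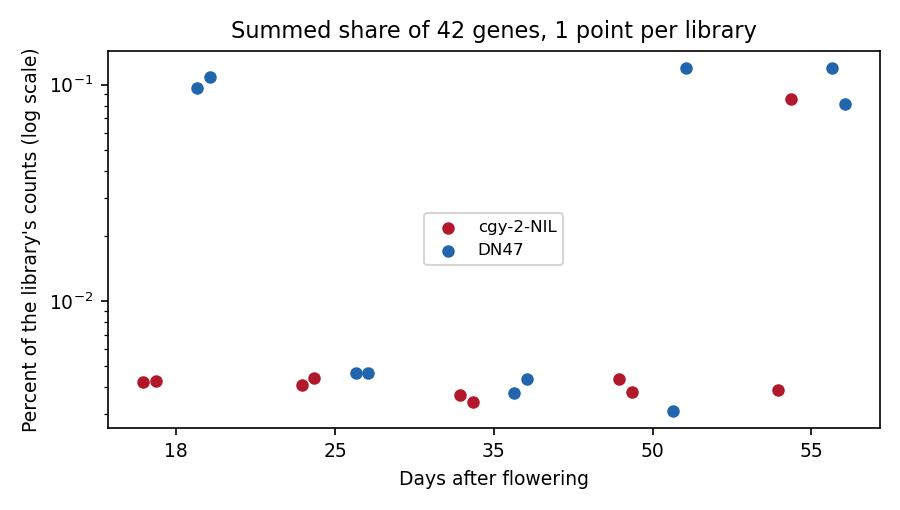
Summed share of each library's counts taken by the 42 genes, on a log scale, at each age in days after flowering (DAF), with 1 point per library and cgy-2-NIL drawn left of DN47. The 2 cgy-2-NIL libraries of 18 DAF sit at 0.00425% and 0.00429% and the 2 DN47 libraries at 0.0962% and 0.109%, and both lines have high and low libraries at other ages or within a pair.

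The 2 lines differed at many genes, mostly by small amounts. At an adjusted p under 0.05 (edgeR quasi-likelihood fit, Benjamini-Hochberg), cgy-2-NIL seeds had 1888 genes at a higher level than DN47 seeds and 2851 at a lower one, which is 4.95% and 7.48% of the 38135 tested and 12.4% in all. Of these, 1659 higher and 2339 lower genes changed by 2-fold or less, and the median log2 fold change was 0.42 among the higher and -0.39 among the lower. By more than 2-fold, 229 genes were higher (0.6% of those tested) and 512 were lower (1.34%), and by more than 4-fold 25 were higher and 187 lower. Of all genes tested, 55.9% had libraries of the 2 lines that did not overlap. With all 20 libraries in 1 fit, 156 genes were higher (0.383%) and 327 lower (0.803%) of 40721 tested, and 149 higher and 300 lower genes were called in both fits in the same direction. Without the 42 genes that split replicates, 1887 were higher and 2797 lower, and 228 and 467 by more than 2-fold. Leaving out 1 library at a time gave between 839 and 1205 higher and between 1513 and 2349 lower genes, the fewest higher without DN47 replicate 1 and the fewest lower without cgy-2-NIL replicate 2. All 42 genes of the set were called lower at 18 DAF, with a fitted median log2 fold change of -4.93, or -4.56 with the 5 genes at 0 counts in cgy-2-NIL set to a floor of 3 counts per library. With all 20 libraries in the fit, 5 of the 42 were called.

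**Figure D2:**
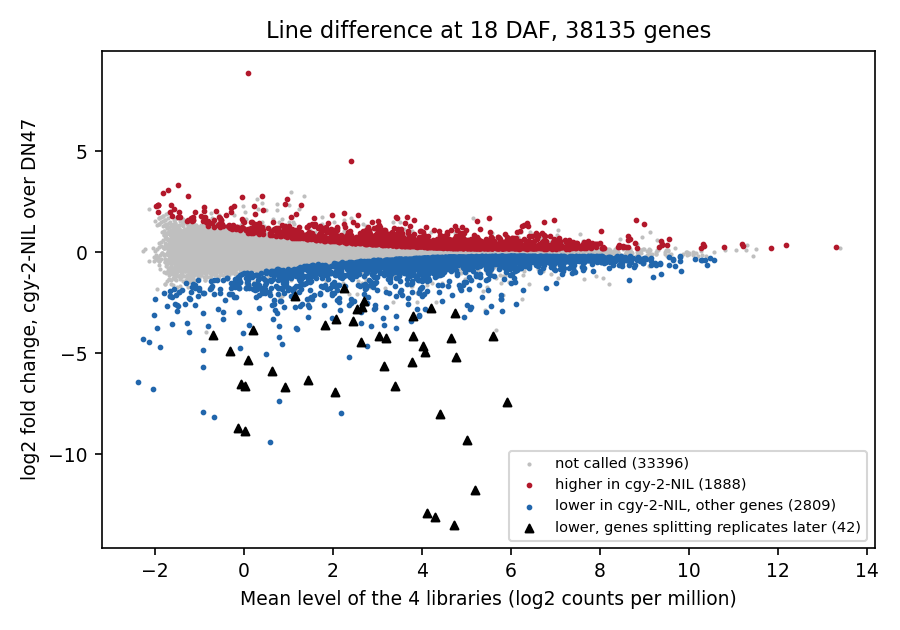
Fitted log2 fold change of cgy-2-NIL over DN47 at 18 DAF against mean level in log2 CPM, 1 point per gene, with 1888 higher genes in red, 2809 lower genes in blue and the 42 genes that split replicates later as black triangles. Most called genes lie within 2-fold, and the triangles hold much of the strongly negative side, where values of genes at 0 counts in a line depend on the fit's prior count.

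The most negative values of the table belonged to neighbours on chromosome 13 within that set. Of the 42 genes, 11 have chromosome 13 IDs, and most of these run from GLYMA13G11840 to GLYMA13G12201. GLYMA13G11961 had 15 and 28 counts in cgy-2-NIL, against 2629 and 3337 in DN47, with an adjusted p of 0.00083 at 18 DAF and 0.18 with all 20 libraries. GLYMA13G12033 had 2 and 4 counts in cgy-2-NIL, against 1534 and 1660 in DN47. GLYMA13G11895 had 6 and 4 counts in cgy-2-NIL, against 959 and 1153 in DN47. GLYMA13G11840 had 1 and 0 counts in cgy-2-NIL, against 1527 and 2111 in DN47, and this call missed the threshold without cgy-2-NIL replicate 2 (adjusted p = 0.052). No domain is annotated for these IDs. Whether reads of a gene were split among neighbouring IDs was not tested. These 4, Novel00815, Novel01348 and GLYMA17G34220 are the 7 genes the study listed for 18 DAF. That list was chosen on these samples, so its count of 7 lower of 7 is not independent evidence of direction.

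Outside the set, the genes with the largest falls were near or at 0 in cgy-2-NIL. GLYMA17G34220, annotated by the study with an Hsp20 domain, belongs to the small heat shock proteins, chaperones that hold unfolding proteins in solution. It had 1 and 1 counts in cgy-2-NIL, against 272 and 176 in DN47, a ratio of 274 of DN47 over cgy-2-NIL with a counting interval of 75.5 to 2273 (95%, exact binomial), and its adjusted p was 4.4e-06 at 18 DAF and 0.00034 with all 20 libraries. At 25 DAF its line difference was -0.42 on the log2 scale and did not pass the test (adjusted p = 0.6). The departure of its 18 DAF difference from the mean of the later ones was fitted at -8.69 on the log2 scale and was not called (adjusted p = 1). The gene was not tested at 35, 50 and 55 DAF for lack of counts. The missing call therefore does not show that the difference was kept. Novel01348, to which no annotation is given, had 1 and 0 counts in cgy-2-NIL, against 80 and 90 in DN47, a ratio of 208 with a counting interval of 36.9 to 8272. Such counting intervals cover counting error alone. GLYMA14G11430 had 3 and 2 counts in cgy-2-NIL, against 79 and 57 in DN47, and a line difference of -0.18 at 25 DAF. Novel02529 had 1 and 3 counts in cgy-2-NIL, against 46 and 45 in DN47. Novel00907 and GLYMA14G25450, also among the 10 largest falls called in both fits, and GLYMA11G10520, with 50 and 39 counts in cgy-2-NIL against 1277 and 1357 in DN47, are members of the set that splits replicates.

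A few genes separated the lines at 18 DAF and at later stages as well. GLYMA20G29500 had 0 and 0 counts in cgy-2-NIL, against 78 and 71 in DN47, which is at least 31.2-fold lower against a floor of 3 counts per library (adjusted p = 3.2e-06). It also had an RPKM of 0 in the 8 later cgy-2-NIL libraries, against 0.0764 to 0.664 in the 8 later DN47 libraries, so no library of the 2 lines overlapped. GLYMA20G29000 had 8 and 9 counts in cgy-2-NIL, against 248 and 249 in DN47, with a log2 fold change of -5.18 ± 0.21 (SE) at 18 DAF and -5.23 at 25 DAF. In the opposite direction, GLYMA03G01240 had 64 and 66 counts in cgy-2-NIL, against 0 and 0 in DN47, which is at least 17.2-fold higher (adjusted p = 1.4e-05), and its fitted difference was positive and past the threshold at 25 and 55 DAF too. Over the whole table, 75 of the 1888 higher genes (3.97%) and 198 of the 2851 lower genes (6.94%) had non-overlapping libraries on the same side at all 5 stages, beside 2.44% of all genes tested. Every called gene was already non-overlapping at 18 DAF, against 55.9% of all genes tested. Of all genes tested, 929 were on the same side at all 5 stages and 21333 did not overlap at 18 DAF. As a share of those 21333, the 929 exceeded the 3.97% of the higher genes and fell short of the 6.94% of the lower ones. The excess of the higher genes over 2.44% was therefore no more than the calling fixed, and part of that of the lower genes was fixed too. Of the 273 called genes on the same side at all 5 stages, 53 were also called at 18 DAF in the fit of all 20 libraries, 14 higher and 39 lower.

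Fewer genes rose than fell by more than 4-fold. GLYMA14G02970 had the largest rise among genes with counts in both lines. It had 339 and 278 counts in cgy-2-NIL, against 10 and 11 in DN47, a log2 fold change of 4.53 ± 0.21 (adjusted p = 5.7e-08), and its difference at the 4 later stages lay between 0.02 and 1.35 and missed the threshold at each. GLYMA19G38020 had 78 and 63 counts in cgy-2-NIL, against 6 and 10 in DN47 (log2 fold change 2.79 ± 0.33), and was also higher at 35 DAF by 1.24. GLYMA14G09120 had 2.29 and 2.14 RPKM in cgy-2-NIL, against 0.306 and 0.501 RPKM in DN47 (2.41 ± 0.27), with later differences of -0.63, 0.18 and 1.19 at 25, 35 and 50 DAF that missed the threshold and a called rise of 1.68 at 55 DAF (adjusted p = 0.00047). Both cgy-2-NIL libraries were above both DN47 libraries in each of these genes, as in every gene called higher at 18 DAF. GLYMA18G35381 was the most abundant per length of the 10 largest rises called in both fits, with 252 and 209 counts in cgy-2-NIL, against 36 and 58 in DN47. GLYMA18G17970 rose at 18 DAF by 2.08 ± 0.29 and was higher at 25 and 55 DAF as well, by 2.47 and 3.30. The rest of the 10, Novel01062, GLYMA02G45810, GLYMA17G12571 and GLYMA04G05700, had log2 fold changes between 1.98 and 2.64. IDs of the kind of Novel01062, with no place in the GLYMA numbering, made up 12.7% of the genes higher by more than 2-fold and 5.66% of those lower by more than 2-fold, beside 4.3% of all genes tested.

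The study listed 74 transcription factors as differing between the lines at some stage, a choice made on these samples that gives no independent evidence. For 18 DAF it gave the GRAS genes GLYMA12G34420, GLYMA06G41500, GLYMA07G39650 and GLYMA13G36120 as lower. Of the 74, 69 were tested at 18 DAF. In all 4 were higher and 6 lower, a share near the 4.95% and 7.48% of all genes, and the list's median log2 fold change was -0.05 beside 0.01 over all genes. With all 20 libraries 0 of the 69 were called higher and 3 lower. The GRAS family of plant regulators includes the DELLA repressors of gibberellin response. Without the 2 DELLA genes it held 27 of those tested, with 2 higher and 4 lower. The higher ones, GLYMA04G42090 and GLYMA03G03760, had log2 fold changes of 0.36 and 0.26. GLYMA12G34420 had 298 and 328 counts in cgy-2-NIL, against 842 and 699 in DN47, and fell by 1.63 ± 0.10 on the log2 scale (adjusted p = 6.6e-06). GLYMA06G41500 had 54 and 37 counts in cgy-2-NIL, against 114 and 90 in DN47 (log2 fold change -1.49 ± 0.23, adjusted p = 0.0011, and 0.1 with all 20 libraries). GLYMA20G30150 and GLYMA10G37640 were lower by less, with log2 fold changes of -0.67 and -0.53. Both cgy-2-NIL libraries lay below both DN47 libraries in these 4 lower genes, as in every gene called lower at 18 DAF.

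Another 3 GRAS genes differed by more than 2-fold but did not pass the test. GLYMA07G39650 had 10.6 and 8.21 RPKM in cgy-2-NIL, against 29.5 and 22.3 RPKM in DN47, with a log2 fold change of -1.50 ± 0.25 and an adjusted p of 0.084. It passed with all 20 libraries (adjusted p = 0.044) and by DESeq2 (2.6e-06). GLYMA13G36120 had 1067 and 771 counts in cgy-2-NIL, against 2024 and 1549 in DN47, with a log2 fold change of -1.29 ± 0.28 and an adjusted p of 0.14, or 0.00069 by DESeq2. GLYMA09G01440 had 326 and 251 counts in cgy-2-NIL, against 702 and 436 in DN47, with a log2 fold change of -1.31 ± 0.36 and an adjusted p of 0.18, or 0.037 with all 20 libraries. In these genes replicate 1 was above replicate 2 in each line. The DELLA genes GLYMA11G33720 and GLYMA18G04500 had log2 fold changes of -0.07 ± 0.06 and -0.06 ± 0.06. Both GATA factors that passed the test, GLYMA10G35470 and GLYMA04G01090, were lower, with log2 fold changes of -0.38 and -0.77, and 3 GATA factors were tested. Of the 13 K-box MADS-box genes, the family of floral organ and seed coat regulators, GLYMA14G03100 was higher, by 0.24. A general transcription factor, the TFIIA subunit gene GLYMA11G14450, was higher by 0.47 ± 0.07. GLYMA04G42090, GLYMA03G03760, GLYMA10G37640, GLYMA09G01440, the GATA pair and the MADS-box gene were chosen after their values were seen.

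The study listed 17 genes as differing between the lines at all stages, a choice made on these samples that gives no independent evidence. At 18 DAF 5 of them were higher and 12 lower, and 2 and 5 with all 20 libraries. GLYMA02G41810, with the RCC1 repeats of the chromatin-bound exchange factor for the Ran GTPase, had 21.0 and 21.1 RPKM in cgy-2-NIL, against 47.6 and 54.7 RPKM in DN47. Its fall of 1.32 ± 0.07 on the log2 scale at 18 DAF (adjusted p = 1.6e-07) was matched by negative values at the 4 later stages, between -1.15 and -0.74. GLYMA16G07750, to which no domain is given, was lower by 1.01 ± 0.13 and had negative values at every later stage. GLYMA11G15580, with the receiver domain of response regulators, had 15.4 and 15.0 RPKM in cgy-2-NIL, against 9.54 and 9.88 RPKM in DN47, and was higher by 0.61 ± 0.06 at 18 DAF and by 0.72 to 1.60 afterwards.

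Some other genes of that list differed in direction between 18 DAF and later stages, and others kept their direction. GLYMA01G31300 encodes a ferritin, the iron storage protein of plastids. It had 22.9 and 24.9 RPKM in cgy-2-NIL, against 13.1 and 13.8 RPKM in DN47, and rose by 0.80 ± 0.08 (adjusted p = 2.4e-05). At 25 DAF it had 6.38 and 5.33 RPKM in cgy-2-NIL, against 23.4 and 16.9 RPKM in DN47, and at 35 DAF 35.9 and 41.4 RPKM in cgy-2-NIL, against 129 and 144 RPKM in DN47. The difference at 18 DAF departed from the mean of the later differences by 3.08 on the log2 scale (adjusted p = 6.2e-06, 20 libraries). GLYMA12G04701, with an RNA recognition motif, was the most abundant of the 17, with 761 and 807 RPKM in cgy-2-NIL, against 590 and 606 RPKM in DN47. It was higher by 0.35 ± 0.06 at 18 DAF, a call lost with all 20 libraries (adjusted p = 0.6) and without cgy-2-NIL replicate 2 (0.068), and its log2 fold change at 25 DAF was -1.21. The basic helix-loop-helix gene GLYMA11G18290 and the zinc finger gene GLYMA12G01350 were higher by 0.33 ± 0.06 and 0.28 ± 0.05 at 18 DAF and had negative values at the 4 later stages. The later values of GLYMA04G41540, a glutamate synthase gene of nitrogen assimilation, were negative like its value of -0.37 ± 0.06 at 18 DAF, and larger in size, down to -2.99 at 55 DAF. The haem peroxidase gene GLYMA09G02600, the pseudouridine synthase gene GLYMA15G06160, the C2 domain gene GLYMA03G02370, GLYMA20G16100, GLYMA08G16310 and GLYMA02G04840 were lower at 18 DAF, with log2 fold changes between -2.18 and -0.37. The peroxidase, pseudouridine synthase and C2 domain genes had negative values at the 4 later stages too. GLYMA20G16100, GLYMA08G16310 and GLYMA02G04840 had positive values at 25 and 35 DAF and negative ones at 50 and 55 DAF. Of these 17 genes, the calls of GLYMA12G04701, Novel00599, GLYMA09G02600, GLYMA02G04840, GLYMA20G16100 and GLYMA12G01350 were lost without at least 1 library, with adjusted p between 0.058 and 0.114.

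The genes lower by more than 2-fold at 18 DAF had mostly positive line differences at 25 and 35 DAF, stages that share no library with 18 DAF. Outside a wider set of 73 genes that split the same replicates by more than 2-fold, 456 genes were lower by more than 2-fold. Of the 421 of these tested at 25 DAF, 326 (77.4%) had a positive line difference, with a median log2 fold change of 1.04, beside 50.1% positive and a median of 0.00038 over all genes tested at both stages. At 25 DAF 186 of them were called higher (44.2%, beside 6.54% of all genes) and 31 lower (7.36%, beside 3.38%). At 35 DAF the median was 0.69 over 350 genes, 66 were called higher (18.9%, beside 9.74%) and 31 lower (8.86%, beside 10.1%). At 50 DAF the median was -0.59 over 307 genes, with 2 called higher and 11 lower, beside 0.112% and 0.115% of all genes. At 55 DAF the genes were split, with 95 called higher (30.4%, beside 23.6%) and 97 lower (31%, beside 26.5%) and a median of -0.05 over 313 genes. The 18 DAF libraries of DN47 also held the replicate-splitting set at a high level. Across 34653 genes with at least 20 counts on average, the log2 difference of DN47 over cgy-2-NIL at 18 DAF was set beside the log2 split of replicate 2 over replicate 1. The correlation was 0.203 with the split in DN47 at 50 DAF and 0.202 with that in cgy-2-NIL at 55 DAF. Across the 34583 genes outside the wider set the values were 0.0198 and 0.0437. The wider set was defined by these same splits, so leaving it out takes away the genes most apt to carry a correlation. Whether the remaining differences go with the state of that set was not tested. These values are a description over genes, which are not independent.

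**Figure D3:**
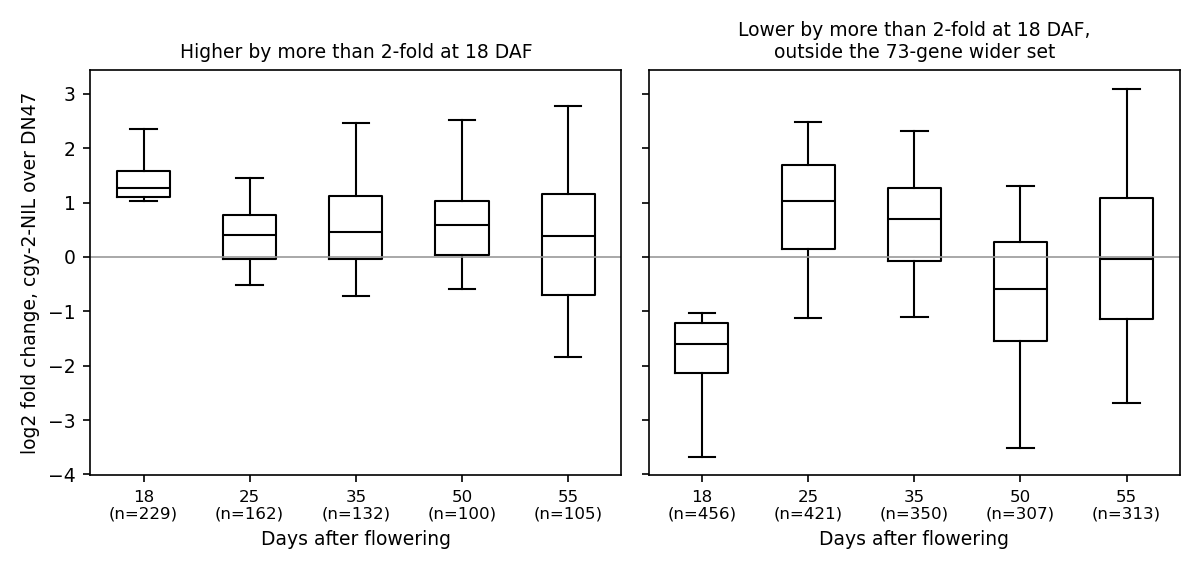
Log2 fold change of cgy-2-NIL over DN47 at each stage for the genes higher (left) and lower (right, outside the wider set) by more than 2-fold at 18 DAF, with boxes from the lower to the upper quartile, a line at the median and whiskers from the 5th to the 95th percentile of genes. The genes were chosen on the 18 DAF values, and the right panel has its median at 1.04 at 25 DAF, 0.69 at 35 DAF and -0.59 at 50 DAF.

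Genes that were lower by more than 2-fold at 18 DAF and called higher at both 25 and 35 DAF numbered 45 of 381 tested at the 3 stages (11.8%), beside 1.74% of all genes called higher at both. GLYMA11G25660, which encodes an EF-hand protein of the calcium-binding type, had 0.857 and 0.810 RPKM in cgy-2-NIL at 18 DAF, against 8.84 and 6.19 RPKM in DN47. At 25 DAF it had 16.8 and 15.3 RPKM in cgy-2-NIL, against 4.26 and 5.42 RPKM in DN47. Its log2 fold change was -3.20 ± 0.26 at 18 DAF (adjusted p = 8.4e-06), 1.63 at 25 DAF and 1.71 at 35 DAF, then -4.37 and -3.19 at 50 and 55 DAF. Novel00599 followed the same order, with 42 and 41 counts in cgy-2-NIL, against 496 and 314 in DN47 at 18 DAF, and log2 fold changes of 2.37 and 2.29 at 25 and 35 DAF, though its 18 DAF call was lost without either cgy-2-NIL replicate (adjusted p = 0.064 without replicate 1 and 0.103 without replicate 2). GLYMA13G17250 had 0.339 and 0.649 RPKM in cgy-2-NIL at 18 DAF, against 14.4 and 10.2 RPKM in DN47. At 25 DAF it had 14.7 and 7.83 RPKM in cgy-2-NIL, against 1.34 and 3.23 RPKM in DN47. The glutaredoxin-like gene GLYMA12G13920, of a family that reduces disulfides with glutathione, had 36 and 43 counts in cgy-2-NIL, against 145 and 116 in DN47, and log2 fold changes of -2.05 ± 0.21 at 18 DAF and 1.15 at 25 DAF. The values of GLYMA13G17250 missed the threshold at both 25 and 35 DAF (adjusted p = 0.0504 and 0.0827), and that of GLYMA12G13920, 1.72, missed it at 35 DAF. GLYMA12G34420 of the GRAS family had 23.6 and 19.3 RPKM in cgy-2-NIL at 25 DAF, against 8.79 and 12.5 RPKM in DN47, the reverse of 18 DAF.

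**Figure D4:**
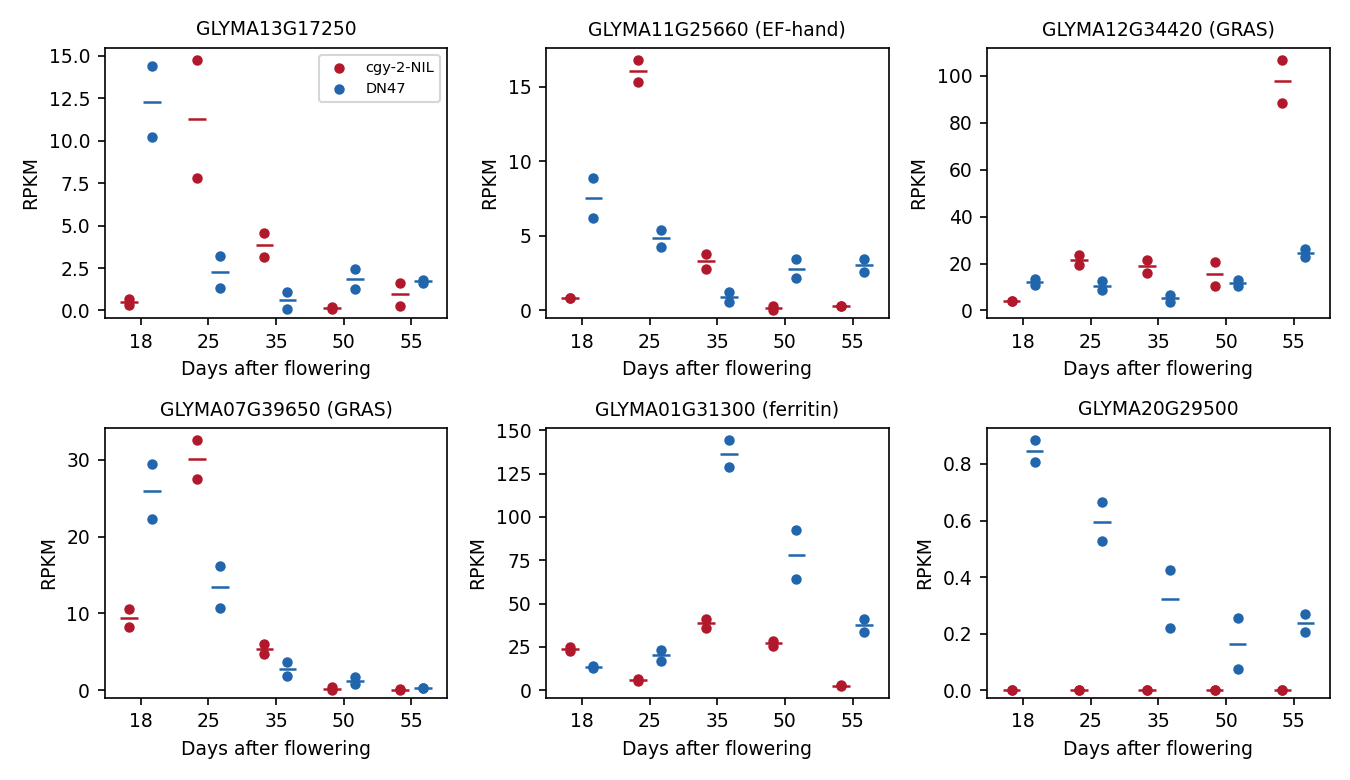
RPKM of 6 genes at each age in days after flowering, with 1 point per library, a bar at the mean of the 2 libraries, and cgy-2-NIL in red left of DN47 in blue. In the EF-hand and both GRAS genes cgy-2-NIL lies below DN47 at 18 DAF and above it at 25 DAF, the ferritin gene does the opposite, and GLYMA20G29500 is at 0 in each cgy-2-NIL library.

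The genes higher by more than 2-fold at 18 DAF had mostly positive line differences at the later stages, and a minority of them passed the test as higher at each. Of the 162 tested at 25 DAF, 118 (72.8%, beside 50.1% of all genes) had a positive line difference, with a median log2 fold change of 0.41, and the medians at 35, 50 and 55 DAF were 0.45, 0.59 and 0.38. At 25 DAF 22 were called higher (13.6%, beside 6.54% of all genes) and 2 lower (1.23%, beside 3.38%). At 35 DAF 38 were called higher (28.8%, beside 9.74%) and 6 lower (4.55%, beside 10.1%), and at 50 DAF 2 were higher and 0 lower of 100 tested. At 55 DAF 61 of 105 were positive (58.1%, beside 47.5%), with 40 called higher (38.1%, beside 23.6%) and 21 lower (20%, beside 26.5%). Of the 229 genes, 162 were tested at 25 DAF and 132 at 35 DAF, and 1 was called lower at both stages. The share of all genes called lower at both was not counted. Over all genes, the line difference at 18 DAF departed from the mean difference of the 4 later stages in 4950 of 37750 genes tested in both fits (13.1%). Over the 40721 genes of the 20-library fit the count was 4980, but it fell to 1389 without the libraries of 55 DAF and to between 1742 and 1947 without any single 18 DAF library.

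Of the 18 cupin genes, 8 were tested at 18 DAF, and 1 was higher and 1 lower, beside 4.95% and 7.48% of all genes, while 0 were called with all 20 libraries. The 11S gene GLYMA15G04710 held most of their counts, with 5045 and 5289 counts in cgy-2-NIL, against 3611 and 3526 in DN47, a log2 fold change of 0.20 ± 0.06 (adjusted p = 0.03). The α′-subunit gene GLYMA10G39150 had 1.19 and 1.13 RPKM in cgy-2-NIL, against 1.69 and 1.73 RPKM in DN47, a log2 fold change of -0.60 ± 0.17 (adjusted p = 0.042). Both calls were lost when any single library was left out, with adjusted p between 0.069 and 0.29. The 7S genes GLYMA10G03390, GLYMA02G16440 and GLYMA10G39170 and the 11S gene GLYMA08G13440 had values between -0.58 and 0.33 on the log2 scale and did not pass the test, nor did GLYMA19G34770 and GLYMA16G00980. The other 10 cupin genes, among them the β-subunit gene GLYMA20G28460 and the glycinin genes Gy1 to Gy5, had at most 7 counts in any of the 4 libraries.

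The donor segment lies on chromosome 20, and called genes were read by chromosome from their IDs. Chromosome 20 had the highest share of higher calls, 114 of 1619 genes tested (7.04%), beside 3.89% to 5.93% on the other 19 chromosomes, while its share of lower calls, 127 genes (7.84%), lay within their range of 5.82% to 9.31%. With all 20 libraries in the fit, 24 of its genes (1.48%) were called in the same direction, within the 0.881% to 1.85% of the other chromosomes, with chromosome 11 the highest. The 201 tested genes nearest to the α-subunit IDs ran from GLYMA20G26860 to GLYMA20G30160. Of these, 27 were higher (13.4%) and 28 lower (13.9%), beside 4.95% and 7.48% of all genes. By more than 2-fold 4 were higher (1.99%) and 8 lower (3.98%), beside 0.6% and 1.34%. With all 20 libraries 8 were called (3.98%), beside 1.19% of all genes in that fit. That count did not require a call in the fit of 18 DAF alone. GLYMA20G29770 had 31 and 35 counts in cgy-2-NIL, against 339 and 332 in DN47, a fall of 3.67 ± 0.15 on the log2 scale (adjusted p = 1.1e-08), and was negative at 25, 35 and 50 DAF. GLYMA20G29080 had 4717 and 4980 counts in cgy-2-NIL, against 1468 and 1249 in DN47, a rise of 1.50 ± 0.08, with values of 1.54 and 0.73 at 25 and 35 DAF and -0.46 and -1.17 at 50 and 55 DAF. GLYMA20G29770 and GLYMA20G29080 were chosen after their values were seen.

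**Figure D5:**
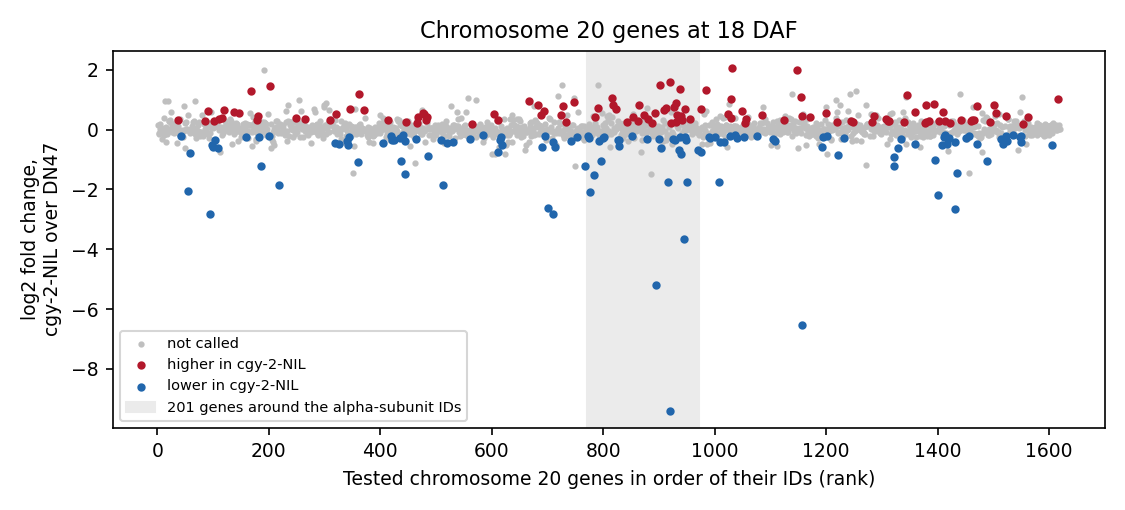
Log2 fold change of cgy-2-NIL over DN47 at 18 DAF for the 1619 tested chromosome 20 genes in the order of their IDs, with called genes in colour and a grey band over the 201 genes around the α-subunit IDs. The band holds GLYMA20G29000, GLYMA20G29500 and GLYMA20G29770, and called genes of both directions lie along the rest of the chromosome.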

How the data were processed

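Libraries were made from pooled whole seeds by poly(A) selection and random priming and sequenced as paired ends on an Illumina HiSeq. The authors deposited 2 tables for the 20 libraries, raw read counts per gene (HTSeq v0.6.1, Ensembl Plants release 23) and RPKM values, which relate the counts to gene length and library total. Neither the aligner nor the strandedness of counting is given in the sources used here, so genes that overlap or share sequence could share reads. All columns matched a sample.

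Groups were taken from the labels. The 4 libraries of 18 DAF were fitted with edgeR 4.0.16 (R 4.3.3) on the deposited counts with filterByExpr, TMM factors, robust quasi-likelihood F tests and Benjamini-Hochberg adjustment over 38135 genes, at an adjusted p under 0.05. The departure from the later stages was a contrast among 10 group means of all 20 libraries. SE is the size of the log2 fold change divided by the root of F. RPKM was used for levels. Tested on simulated data with the 18 DAF means, this fit called 87 of 100 genes changed 2-fold, 100 of 100 changed 4-fold and 14 of the unchanged genes among 37633. The changed genes had a mean of at least 20 counts. The simulated spread followed the fitted trend with mean level and gave no gene a spread of its own. The 14 is therefore not an error rate of the real calls.

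Alternatives were DESeq2 1.42.0, limma-voom 3.58.1, the exact test, other scalings and filters, a replicate block, the 20-library fit, each library left out, and, chosen after seeing the data, fits without the replicate-splitting genes. Replicate numbers are shared between lines, but the labels do not pair them.

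Named genes were the 10 largest rises and 10 largest falls among genes called in both the 18 DAF and the 20-library fit, with non-overlapping libraries and 20 or more counts on average, the 4 members of each of the study's lists with the smallest p and at least 20 counts, the genes the study lists for 18 DAF, and the α-subunit genes. Members and lists were chosen with earlier results of these data known. No gene ID matched the RefSeq gene table (0 of 57274), so roles are given for IDs the study annotates, and lists by product name, cell type markers, promoters and sequences were not analysed here.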

Additional observations from a re-analysis of the deposited data

Results flagged for a closer look

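Among the 20 genes with the largest line differences called in both fits, 7 had an 18 DAF difference that departed from the mean difference of the 4 later stages (edgeR, 20 libraries). Such a departure was called in 13.1% of all genes tested in both fits. It was called in 23.1% of the genes higher and 45.0% of those lower by more than 2-fold at 18 DAF. Of the rises among the 7, the departure was 3.71 on the log2 scale in GLYMA14G02970 (adjusted p = 0.00029), 1.80 in GLYMA14G09120 (0.0035) and 1.96 in GLYMA02G45810 (0.0046). Of the falls, it was -5.63 in GLYMA14G11430 (0.00043), -4.72 in GLYMA13G17250 (0.0064), -3.74 in Novel02529 (0.025) and -4.40 in GLYMA11G10520 (0.048). GLYMA11G10520 belongs to the 42 genes that split replicates at 50 and 55 DAF. The genes were chosen partly on the 18 DAF difference that enters this contrast, and non-overlapping libraries of the 2 lines at 18 DAF were a condition of the choice. Groups held 2 libraries each, too few for a search for outlying samples.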

How the results depend on the processing

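In the fit of all 20 libraries the counts at 18 DAF were 156 higher and 327 lower, and 85 and 221 by more than 2-fold. DESeq2's Wald test gave 757 higher and 1640 lower, with 120 higher by more than 2-fold. Leaving out 1 library in turn gave 839 to 1205 higher and 1513 to 2349 lower genes, and 110 to 230 and 350 to 513 by more than 2-fold. The count of departures from the later stages was 1389 without the 4 libraries of 55 DAF and 1742 to 1947 without 1 of the 18 DAF libraries. DESeq2 size factors, upper-quartile factors, limma-voom, the exact test and both filters left the 4 counts at 18 DAF within 1.5 times. No gene called at 18 DAF was called in the opposite direction under any of the alternatives run. That outcome was largely fixed in advance, since every called gene had non-overlapping libraries at 18 DAF and the alternatives reused these libraries. With the replicate number as a block 1500 genes were higher and 2525 lower, 184 and 511 by more than 2-fold, and 4923 departed. Same-numbered libraries of the 2 lines deviated from their line means with a correlation of -0.26, and a block with the numbers crossed, added after seeing the data, gave 2247 higher and 3166 lower. Without the wider set of 73 genes 1883 were higher and 2782 lower. Of the 58 named genes tested, 20 lost their call in the 20-library fit, 3 under DESeq2, 2 under the block and between 4 and 5 without a single library. Not all 58 could lose a call. The largest rises and falls were chosen as called in the 20-library fit, and some other named genes were not called at 18 DAF. Depth limits genes with few counts: the floor was 3 counts per library, and fold sizes below it were not resolved. Lists by product name and promoter motifs, planned as results, were not run for lack of annotation.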
